A study of Mus musculus with 18 samples.

Results

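The protocadherin genes, the largest branch of the cadherin superfamily of cell adhesion genes, were followed in nuclei of the hippocampus (Hip) and the prefrontal cortex (PFC). Members were all genes of the deposited tables whose symbol starts with Pcdh, which gave 69 of 30905 genes. They were 14 genes of the alpha cluster, 22 of the beta cluster, 21 of the gamma cluster and 12 non-clustered genes, and the alpha cluster held 2 rows with the same symbol, Pcdha11. The nuclei came from 9 Kun Ming mice harvested at 8 weeks of age. Of these, 3 were germ-free (GF), 3 were specific pathogen free (SPF) and 3 were colonized-GF (CGF), and the labels name no genetic change in any group. CGF mice were GF animals that lived with SPF mice from a juvenile age in an isolator. GF mice stayed in isolators too, so housing and microbiota cannot be told apart between GF and SPF. Each mouse gave 1 Hip and 1 PFC library of droplet-based single-nucleus RNA sequencing from frozen tissue.

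Protocadherins are membrane proteins whose extracellular cadherin repeats bind the same protein on a neighbouring membrane, and they are known for dendrite self-avoidance, axon fasciculation and synapse formation. The clustered genes lie side by side on a single chromosome, and a neuron uses a few of them at a time. In the alpha and gamma clusters each variable first exon is spliced to the same constant 3′ exons, so the transcripts of a cluster share their 3′ ends, which is where a 3′ library reads. Of the non-clustered genes, Pcdh1, Pcdh7, Pcdh9 and Pcdh11x form the delta-1 subfamily and Pcdh8, Pcdh10, Pcdh17, Pcdh18 and Pcdh19 form the delta-2 subfamily, whose tails bind regulators of actin. Pcdh12, Pcdh15 and Pcdh20 are placed outside both.

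The libraries held 139924 barcodes, of which 138000 nuclei were kept, 71398 of Hip and 66602 of PFC. In Hip a library held 49067853 to 63217083 UMIs (unique molecular identifiers, each counted as 1 molecule). In PFC the GF libraries held 59126586 to 71463928 UMIs, the SPF libraries 20336250 to 26949210 and the CGF libraries 22213863 to 26151503, so depth moved with the GF group there. Mitochondrial UMIs made up 0.645% to 1.10% of GF and 0.128% to 0.471% of SPF libraries in Hip, and 0.359% to 0.594% of GF and 1.66% to 3.22% of SPF libraries in PFC. No pair of libraries shared more than 29 barcodes. Nuclei were assigned to cell types by marker genes that include no protocadherin, UMIs were summed per library and type, and levels are given as CPM, the usual scaling of a gene's UMIs by all UMIs of that sum. In such a sum, fewer expressing nuclei and less RNA per nucleus cannot be told apart. None of the 8 excitatory, 9 astrocyte, 10 oligodendrocyte, 8 oligodendrocyte precursor cell (OPC) or 12 microglia markers was at 0 in its own type.

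Nearly every clustered protocadherin was listed at 0. Of the 57 clustered genes, 56 had no UMI in any of the 139924 barcodes, which among 850535969 UMIs allows a level of up to 0.00353 CPM for each, counting error only. The exception was Pcdha1, the first gene of the alpha cluster, with 677 UMIs. The 12 non-clustered genes all had UMIs and held 4956153 of the 4956830 protocadherin UMIs, and Pcdh9 alone held 65.1% of them.

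The zeros went together with the gene annotation. In GENCODE release 21 (GRCm38), a later annotation than the Ensembl release the authors counted with, 3 read-through genes, Gm42416, Gm37013 and Gm37388, span the clusters on the same strand and overlap all 57 clustered genes. Of the gene-body bases of the clustered genes, Pcdha1 was left with 9021 that no other gene of its strand covers, and the other 56 with 0, although each of them had exon bases that no other gene's exons cover. Across the tables, 641 of the 643 matched genes with no base of their own were at 0 (99.7%), against 3230 of the 30123 genes with at least 1 such base (10.7%). Without the protocadherins the counts were 585 of 587 and 3230 of 30110. The 3 read-through genes were also at 0. Counting of this kind commonly credits no gene with a read that fits more than 1, and the part of this in the zeros was not tested. The zeros are therefore not read as absence of expression, and nothing about the 56 genes by cell type, group or region could be read from these tables.

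**Figure D1:**
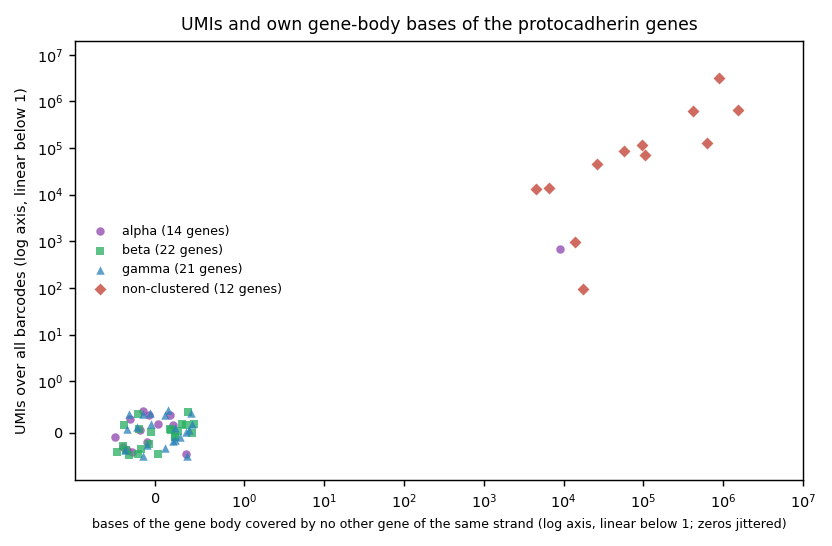
Each point is 1 of the 69 protocadherin genes, placed by the gene-body bases that no other gene of the same strand covers (x axis) and by its UMIs summed over all barcodes (y axis), both on log axes that are linear near 0, with the zeros spread by jitter. The 56 clustered genes at 0 bases sit at 0 UMIs, Pcdha1 lies at 9021 bases and 677 UMIs, and the 12 non-clustered genes lie above 0 on both axes.

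To compare genes with each other, the level over all nuclei of a library was divided by the length of the gene body, since unspliced RNA of the nucleus can be counted along introns, and averaged over libraries. Whether the authors counted introns is not given in the sources used here. By CPM alone, and per kb of exon, Pcdh9 came first in all 18 libraries. Per kb of gene body, the member that came first moved with the group in both regions. In Hip, Pcdh9 came first in the 3 SPF and 3 CGF libraries, with 4.87 to 6.01 CPM per kb in SPF and 4.74 to 6.01 in CGF. Its gene body lies at chr14:93013410-93890679 on the minus strand and is 877 kb long. In the 3 GF libraries of Hip, Pcdh8 came first with 5.55 to 5.98 CPM per kb, where Pcdh9 had 3.66 to 4.58. In PFC it was Pcdh9 that led in GF, with 3.97 to 4.29 CPM per kb, while Pcdh1 led in the other 6 libraries, with 4.51 to 4.81 in SPF and 3.73 to 4.56 in CGF. Pcdh9 stood at 2.02 to 2.36 CPM per kb in SPF and 1.73 to 2.14 in CGF of PFC, and Pcdh1 at 1.35 to 1.45 in GF.

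Over all 9 libraries of a region, Pcdh8 and Pcdh20, short genes of 4.54 and 6.65 kb, had means of 3.84 ± 1.55 and 3.55 ± 0.724 CPM per kb in Hip (SD, n = 9). In PFC, Pcdh10 (2.73 ± 0.163 CPM per kb) and Pcdh8 (2.69 ± 0.384) differed by less than the spread between libraries. Pcdh15, a gene of 1550 kb at chr10:73099342-74649737 known for the tip links of inner ear hair cells, had many UMIs but only 0.391 ± 0.0801 and 0.627 ± 0.0666 CPM per kb. The X-linked pair Pcdh11x (chrX:120290259-120910619) and Pcdh19 (chrX:133582860-133688987, whose human counterpart is the gene of a female-limited epilepsy) reached 0.202 ± 0.0369 and 1.05 ± 0.160 CPM per kb in Hip. Pcdh8, Pcdh10, Pcdh11x, Pcdh15, Pcdh17, Pcdh19 and Pcdha1 have antisense genes over them, and without a stated strand setting the reads of a gene and its antisense partner cannot be told apart. Pcdh18, Pcdh12 and Pcdha1 had the lowest means in both regions, at most 0.137 CPM per kb. Pcdha1 was divided by its full body of 257 kb, although other genes of its strand cover all but 9021 bases. Its place in this order therefore depends on the length used.

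By cell type, OPCs held more enriched protocadherins than any other type of either region. A gene counted as enriched in a type when its level exceeded the mean of the other 5 types by a log2 difference of at least 1, at an adjusted p under 0.05 in edgeR's quasi-likelihood test with the library as a block. Of 10 members tested, OPCs, the proliferating precursors of myelinating cells, held 4 enriched members in Hip against 8.5% of all genes tested, and 4 in PFC against 8.79%. Oligodendrocytes, the myelinating cells, held 1 in each region (background 8.69% and 9.11%). Astrocytes held 2 in Hip and 0 in PFC (background 10.7% and 11.4%). Interneurons held 2 in each region (background 11.8% and 9.68%). Excitatory neurons held 0 in Hip and 1 in PFC (background 12.2% and 12.2%), and microglia held none in either (background 10.5% and 9.81%). The counts of 0 hold for the size criterion and edgeR alone, since DESeq2 was not run between types. The 4 glial types held 7 of the 9 enrichments of members in Hip and 5 of the 8 in PFC, against 61.6% and 64.1% of the enrichments of all genes, so glia as a whole lay near the background in PFC.

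Pcdh15 was the member with the largest enrichment. Its level in OPCs ranged from 3561 to 4749 CPM (median 3905) over the 9 Hip libraries and from 2283 to 3749.9 CPM (median 2780.3) over the 9 PFC libraries, and these ranges did not overlap with those of any other of the 6 types. The difference from the other types was 3.65 ± 0.09 (SE, edgeR adjusted p = 5.72e-40) in Hip and 2.91 ± 0.13 (SE, edgeR adjusted p = 7.42e-28) in PFC. Pcdh11x was highest in the same type, with 916 ± 117 CPM (SD, n = 9) in Hip OPCs against 262 ± 32.2 CPM in oligodendrocytes, the next highest of the 6, and 642 ± 236 CPM against 233 ± 69.2 CPM in PFC. Its enrichment was 2.98 ± 0.08 (SE, edgeR adjusted p = 1.41e-37) in Hip and 2.07 ± 0.09 (SE, edgeR adjusted p = 1e-27) in PFC. Pcdh17, an adhesion protein of corticostriatal synapses, was also enriched in OPCs of both regions, by 1.15 ± 0.07 (SE, edgeR adjusted p = 3.45e-20) and 1.08 ± 0.11 (SE, edgeR adjusted p = 3.44e-13). Pcdh7 was enriched in OPCs of Hip (1.45 ± 0.07 SE, edgeR adjusted p = 1.44e-24) and Pcdh20 in those of PFC (1.17 ± 0.30 SE, edgeR adjusted p = 0.00137), where its level was only 12.5 ± 7.25 CPM. In PFC OPCs, Pcdh7 was also above the other types, by 0.87 ± 0.10 (SE, edgeR adjusted p = 2.78e-11), under the log2 of 1. Pcdh20 did not pass in Hip OPCs (0.16 ± 0.16 SE, edgeR adjusted p = 0.452).

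Pcdh9, a delta-1 member, was the oligodendrocyte protocadherin of both regions. It stood at 13415 ± 2318 CPM (SD, n = 9) in Hip oligodendrocytes and 7810.0 ± 3611 CPM in those of PFC, against 5906 ± 1046 CPM and 3327 ± 1274 CPM in OPCs, the next type in the order. In Hip every oligodendrocyte value lay above every OPC value, and in PFC the ranges overlapped. The difference from the other types was 2.12 ± 0.10 (SE, edgeR adjusted p = 8.48e-27) in Hip and 2.15 ± 0.11 (SE, edgeR adjusted p = 1.7e-25) in PFC. In Hip astrocytes, Pcdh7 was enriched by 1.24 ± 0.07 (SE, edgeR adjusted p = 3.01e-22) and Pcdh10, a delta-2 member that binds WAVE complex proteins, by 1.18 ± 0.06 (SE, edgeR adjusted p = 4.81e-26). In PFC astrocytes both were above the other types too, but under the log2 of 1. Pcdh7 had 0.91 ± 0.09 (SE, edgeR adjusted p = 3.47e-13) there and Pcdh10 0.65 ± 0.06 (SE, edgeR adjusted p = 1.4e-13). Among the 6 types, Pcdh19 was enriched in interneurons of both regions, with 145 ± 14.0 CPM in Hip and 59.6 ± 12.3 CPM in PFC, differences of 1.11 ± 0.06 (SE, edgeR adjusted p = 2.53e-23) and 1.22 ± 0.10 (SE, edgeR adjusted p = 2.18e-16). Pcdh15 was enriched in Hip interneurons (1.16 ± 0.10 SE, edgeR adjusted p = 5.18e-16) and in PFC excitatory neurons (1.33 ± 0.13 SE, edgeR adjusted p = 3.43e-13). Pcdh8, an activity-regulated member also called arcadlin, was enriched in PFC interneurons by 1.01 ± 0.13 (SE, edgeR adjusted p = 1.01e-09). The log2 difference went under 1 for Pcdh19 in Hip interneurons without GF mouse 5 (0.97) or GF mouse 7 (0.99), for Pcdh17 in PFC OPCs without GF mouse 6 (0.94) and for Pcdh8 in PFC interneurons without CGF mouse 18 (0.998), SPF mouse 31 (0.97) or SPF mouse 32 (0.94).

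Microglia, the resident immune cells, had the most members below the other types. Of the 10 members tested, 6 in Hip and 5 in PFC fell by a log2 difference of at least 1 below the mean of the other types there, against 18.6% and 19.4% of all genes tested. The 5 that did so in both regions were Pcdh7, Pcdh9, Pcdh11x, Pcdh15 and Pcdh17, and the sixth in Hip was Pcdh10. The difference was -3.24 ± 0.17 (SE, edgeR adjusted p = 1.37e-24) for Pcdh11x and -3.04 ± 0.15 (SE, edgeR adjusted p = 4.85e-26) for Pcdh9 in Hip. Neuronal RNA was counted there as well: the 8 excitatory neuron markers, none at 0, summed to 1414 to 2435 CPM in Hip microglia and 1452 to 2654 CPM in PFC microglia, against 2848 to 4982 CPM in excitatory neurons. Their part was not tested, and a protocadherin level in microglia is read as a level of the sum and not as expression by microglia.

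The vascular types were not part of the tests and are given as values. Pcdh18, whose mean was at most 6.33 CPM in each of the 6 tested types, reached 49.7 ± 15.0 CPM (SD, n = 4 libraries) in Hip mural cells and 92.4 ± 63.9 CPM (n = 9) in PFC mural cells, the contractile cells of small vessels. Pcdh12, a vascular endothelial member, had 55 UMIs in Hip and 38 in PFC over all nuclei. Its level was 7.20 ± 7.88 CPM in Hip endothelial cells, 7.10 ± 7.31 CPM in PFC endothelial cells and 13.5 ± 20.99 CPM in PFC mural cells, with SDs as large as the means, and a mean of at most 0.0620 CPM in any of the 6 tested types. Pcdh19 was also high in endothelial cells, at 161 ± 37.1 CPM in Hip and 103 ± 44.3 CPM in PFC. The ranges there overlapped with those in interneurons.

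**Figure D2:**
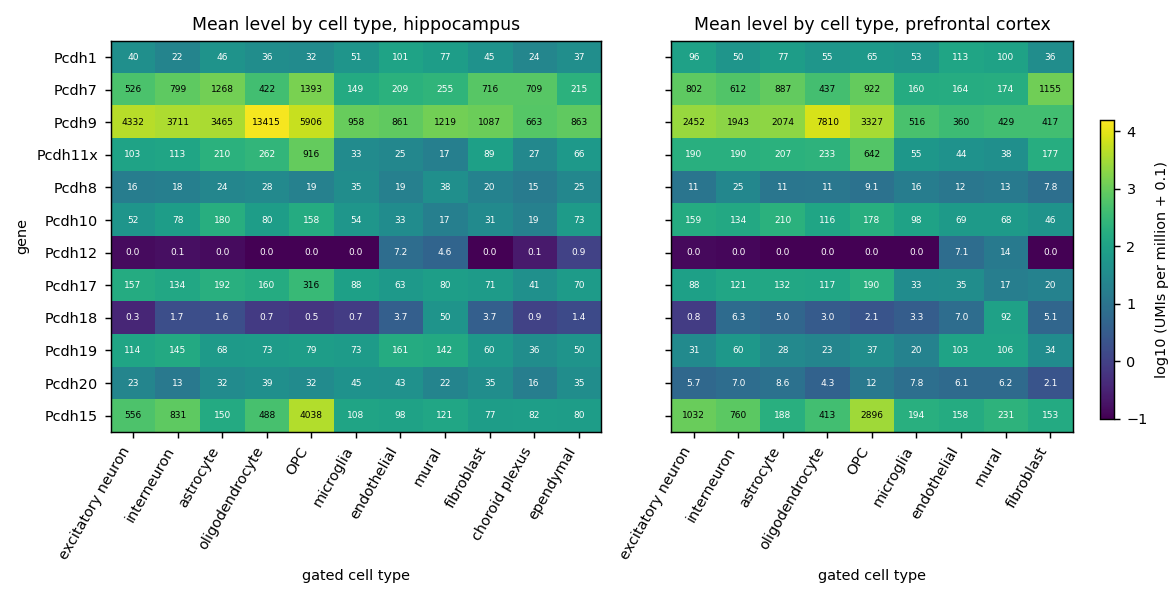
Mean CPM (number in the cell, color on a log10 scale) of the 12 non-clustered protocadherins (rows) in each gated cell type (columns) of Hip and PFC, over the libraries with at least 20 nuclei of the type. Pcdh9 is highest in oligodendrocytes and Pcdh15 and Pcdh11x in OPCs in both regions, and Pcdh18 stands out in mural cells.

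Within neurons, members marked different subtypes. Subtypes were gated by their own markers within excitatory neurons or interneurons, and each was compared with the mean of the other subtypes of its set by the same rule. That mean included layer 6b neurons of PFC, which reached 20 nuclei in 3 libraries only, and Vip interneurons of Hip, which did so in 1. The comparison was therefore repeated without these 2 subtypes, an alternative added after seeing the data. In Hip excitatory neurons, 5 of 30 tests passed, against 5.02% of all tests. Dentate granule neurons held 3 of them: Pcdh20 at 40.6 ± 13.1 CPM (1.22 ± 0.10 SE, edgeR adjusted p = 2.89e-11), Pcdh8 at 27.6 ± 16.9 CPM (1.19 ± 0.10 SE, edgeR adjusted p = 2.07e-10) and Pcdh19 at 176 ± 18.6 CPM (1.11 ± 0.07 SE, edgeR adjusted p = 2.21e-13), where the mean of Pcdh19 was above that of Hip interneurons. CA1 neurons held Pcdh15, at 807 ± 226 CPM against 155 ± 31.9 CPM in dentate granule neurons, and Pcdh7, at 677 ± 101 CPM against 181 ± 42.4 CPM. Those differences from the other subtypes were 1.94 ± 0.08 (SE, edgeR adjusted p = 2.91e-16) and 1.08 ± 0.07 (SE, edgeR adjusted p = 2.51e-12). Pcdh20 ran the other way, with -1.09 ± 0.10 (SE, edgeR adjusted p = 1.57e-09) in CA1 neurons, and Pcdh19 was low in CA3 neurons, with -1.12 ± 0.08 (SE, edgeR adjusted p = 3.37e-12). Dentate granule neurons had Pcdh7, Pcdh15 and Pcdh10 below the other subtypes by a log2 difference of at least 1. The mean set against CA1 neurons thus includes these low values, and CA1 was not tested against CA3 neurons alone.

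In PFC excitatory neurons, 6 of 60 tests passed, against 3.52% of all tests. Layer 6 corticothalamic neurons were marked by Pcdh9, at 4703 ± 1922 CPM (SD, n = 9) and 1.18 ± 0.04 (SE, edgeR adjusted p = 6.93e-31). Mid layer neurons were marked by Pcdh15, at 1591 ± 172 CPM and 1.45 ± 0.06 (SE, edgeR adjusted p = 2.8e-27), and near-projecting neurons by Pcdh17, at 256 ± 80.7 CPM and 1.25 ± 0.11 (SE, edgeR adjusted p = 7.21e-15). Near-projecting neurons had less Pcdh11x (-2.23 ± 0.17 SE, edgeR adjusted p = 8.91e-17) and Pcdh15 (-1.49 ± 0.11 SE, edgeR adjusted p = 1.07e-17). Pcdh8 passed in upper layer neurons, at a mean of 14.9 CPM over the libraries. Pcdh20 passed in upper layer (2.12) and mid layer neurons (2.19) as well, but without layer 6b the differences were 0.66 and 0.74, under the log2 of 1. The other 4 calls of PFC were kept without it.

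Among interneurons, 3 of 30 tests passed in Hip and 3 of 36 in PFC, against 2.78% and 4.03% of all tests. Sst interneurons, which target dendrites, held all 3 of Hip. Pcdh7 stood there at 1357 ± 338 CPM (1.24 ± 0.15 SE, edgeR adjusted p = 5.69e-08), and its log2 difference was 1.48 without Vip interneurons. The other 2 fell under 1 without them, Pcdh9 from 1.08 to 0.52 and Pcdh1 from 1.44 to 0.83, while Pcdh11x went from 0.89 to 1.06 and passed. In PFC they held Pcdh11x at 338 ± 122 CPM (1.57 ± 0.13 SE, edgeR adjusted p = 3.15e-14) and Pcdh7 (1.03 ± 0.09 SE, edgeR adjusted p = 4.93e-14), and Vip interneurons, which inhibit other interneurons, held Pcdh8 (1.78 ± 0.24 SE, edgeR adjusted p = 3.76e-08, 6 libraries). Lamp5 interneurons had less Pcdh7 in both regions, with -1.78 ± 0.16 (SE, edgeR adjusted p = 5.36e-11) in Hip and -1.61 ± 0.10 (SE, edgeR adjusted p = 1.45e-18) in PFC. Pcdh7 was thus at opposite ends of the order in Sst and Lamp5 interneurons of both regions. No value is given for Vip interneurons of Hip.

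**Figure D3:**
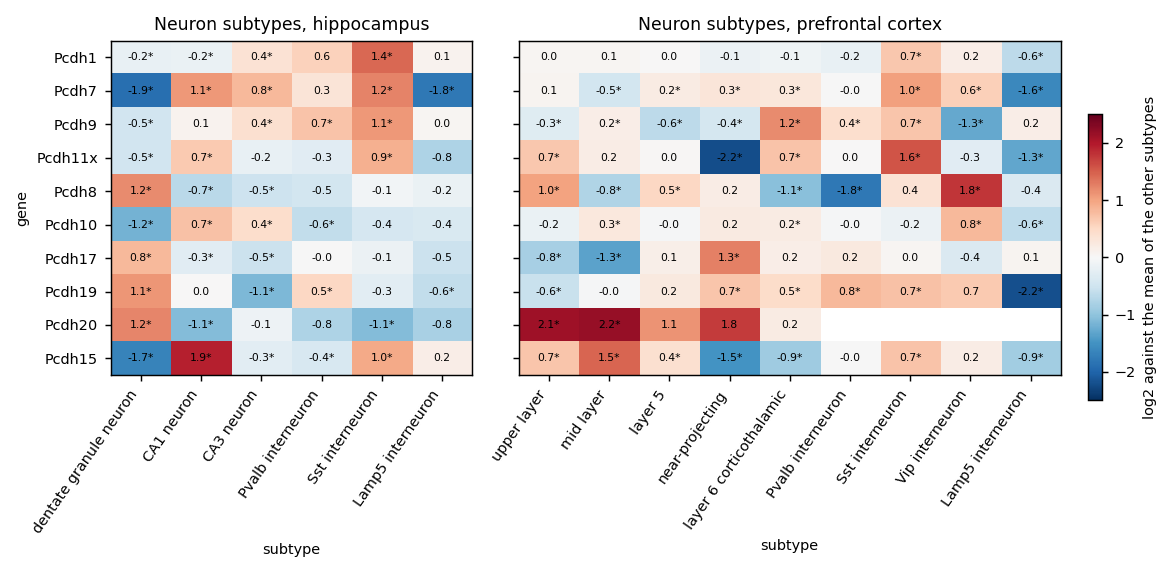
Log2 difference of each member between a neuron subtype and the mean of the other subtypes of its set (color, with the value in the cell), by region. An asterisk marks an adjusted p under 0.05. Pcdh15 and Pcdh7 are low and Pcdh19, Pcdh20 and Pcdh8 high in dentate granule neurons, and Pcdh9 is high in layer 6 corticothalamic neurons. Pcdh20 was not tested in PFC interneurons. The mean of the others includes layer 6b and Hip Vip, which are not drawn, and without layer 6b the Pcdh20 values of 2.1 and 2.2 in PFC become 0.66 and 0.74.

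The comparison of GF with SPF mice asks what the absence of a gut microbiota goes with. Most protocadherin tests that passed were lower in GF in Hip and higher in GF in PFC. In Hip, 28 of 62 tests of a member in a cell type passed an adjusted p of 0.05, 2 higher and 26 lower in GF, against 19.7% higher and 15.9% lower of all tests. In PFC, 31 of 49 passed, 21 higher and 10 lower, against 24.8% and 24.5%. With so many genes called in general, a single call says little about protocadherins. The share of all genes whose libraries do not overlap between groups or regions is not given here. A lack of overlap below describes the values of a member and is not read as particular to protocadherins. By type in Hip, the calls were 4 of 12 in excitatory neurons (background 45.5%), 6 of 10 in interneurons (39.5%), 5 of 10 in astrocytes (35.7%), 6 of 10 in oligodendrocytes (34.6%), 3 of 10 in OPCs (18.5%) and 4 of 10 in microglia (25.7%). In PFC they were 7 of 12 in excitatory neurons (62.6%), 6 of 10 in interneurons (48.8%), 5 of 9 in astrocytes (45.5%), 5 of 7 in oligodendrocytes (38.8%), 6 of 7 in OPCs (31.7%) and 2 of 4 in microglia (38.2%). The median log2 difference of the members ran from -0.97 in microglia to -0.24 in interneurons of Hip, and from -0.72 in microglia to 0.98 in OPCs of PFC, while the median of all genes tested lay between -0.02 and 0.04.

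Gene length moved with the groups. Over all genes tested in Hip, the median log2 difference between GF and SPF lay between 0.58 and 0.81 in the 6 types for gene bodies of up to 10 kb, between -0.94 and -0.35 for those of 300 to 1000 kb and between -1.59 and -0.39 for those over 1000 kb. In PFC these medians lay between -0.58 and 0.12 for 300 to 1000 kb and between -1.16 and 0.62 over 1000 kb. Most protocadherins with many UMIs are long genes, so the median of all tested genes of the same length class is printed beside the differences between GF and SPF in the cell types below, and the part of length in them was not tested.

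Pcdh9, the member with the most UMIs, went in opposite directions in the regions. In PFC oligodendrocytes it stood at 12067, 12324 and 13244 CPM in the 3 GF libraries, 5296, 6341 and 6349.8 in SPF and 4704, 4828 and 5137 in CGF. All 3 GF values were above the 6 others, a log2 difference from SPF of 1.09 ± 0.14 (SE, edgeR adjusted p = 3.95e-07), where genes of 300 to 1000 kb had a median of -0.21. In PFC excitatory neurons it stood at 3544, 3790.5 and 3828 CPM in GF, 1793, 1861 and 2087 in SPF and 1550.5, 1683 and 1934 in CGF, again with GF above both groups (1.10 ± 0.13 SE, edgeR adjusted p = 1.79e-05, length class 0.12). It also rose in GF interneurons (0.95), OPCs (1.12) and astrocytes (0.57) of PFC, each without overlap, where the length class had medians of 0.03, 0.09 and -0.16. PFC microglia were the exception, with 272, 395 and 418 CPM in GF and 564, 619.8 and 675 in SPF (-0.84 ± 0.20 SE, edgeR adjusted p = 0.000691, length class -0.58).

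In Hip, Pcdh9 was lower in GF in all 6 types, with log2 differences of -0.37 to -2.16 beside length class medians of -0.94 to -0.35. In Hip astrocytes it stood at 2071, 2237 and 2554 CPM in GF, 4004, 4480.2 and 4819 in SPF and 3370.2, 3616 and 4036 in CGF (-0.93 ± 0.12 SE, edgeR adjusted p = 5.82e-05, length class -0.55). In Hip oligodendrocytes, its main site, the fall was the smallest: 9973, 10800.2 and 12814 CPM in GF against 12229, 15639 and 17303 in SPF, with 1 GF library inside the SPF range (-0.37 ± 0.13 SE, edgeR adjusted p = 0.0362, length class -0.63). The largest was in Hip microglia, with 197, 316 and 318 CPM in GF and 987, 1378 and 1461 in SPF (-2.16 ± 0.19 SE, edgeR adjusted p = 7.75e-10, length class -0.94). There the 10 oligodendrocyte markers, none at 0, moved with it, summing to 322 to 467 CPM in GF and 704 to 1032 in SPF microglia. In Hip astrocytes the same markers summed to 242 to 302 CPM in GF and 438 to 648 in SPF. Their part in these differences was not tested.

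Pcdh7, the second delta-1 gene (chr5:57717967-58133230), rose beside Pcdh9 in the same 5 PFC types, by 0.71 to 1.06 beside length class medians of -0.21 to 0.12. In PFC excitatory neurons it stood at 1144, 1187 and 1260.3 CPM in GF, 529, 642 and 720.1 in SPF and 481, 544 and 714 in CGF (1.06 ± 0.17 SE, edgeR adjusted p = 0.000215, length class 0.12). In PFC OPCs the values were 1191, 1496 and 1578 CPM in GF and 639.8, 653 and 833 in SPF (1.06 ± 0.19 SE, edgeR adjusted p = 5.62e-05, length class 0.09). In all 5 types every GF library was above every SPF and CGF library. In Hip it fell in interneurons (-0.31), astrocytes (-0.52), OPCs (-0.31) and microglia (-1.36), where the length class had medians of -0.41, -0.55, -0.35 and -0.94. In Hip astrocytes, where Pcdh7 is enriched, it stood at 934, 1004 and 1089 CPM in GF, 1335, 1535 and 1545 in SPF and 1194, 1371 and 1405 in CGF, with GF below SPF in every library.

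Pcdh11x changed in PFC alone among the tests that passed. In PFC OPCs, its main site, it stood at 907, 951 and 971 CPM in GF, 387, 488 and 608 in SPF and 433, 461 and 571 in CGF (0.98 ± 0.18 SE, edgeR adjusted p = 0.000128, length class 0.09). It also rose in PFC oligodendrocytes (0.93 ± 0.18 SE, edgeR adjusted p = 0.000113, length class -0.21) and interneurons (0.42 ± 0.16 SE, edgeR adjusted p = 0.0374, length class 0.03). In Hip OPCs the values were 791, 851 and 867 CPM in GF and 804, 949 and 1116 in SPF, a difference of -0.25 ± 0.14 (SE, edgeR adjusted p = 0.205) that did not pass (length class -0.35). Pcdh1, the delta-1 gene with the shortest body (26.1 kb at chr18:38185914-38212053) and a known adhesion protein of airway epithelium, went the other way. In PFC excitatory neurons it stood at 36.9, 38.1 and 39.6 CPM in GF, 126, 133 and 134 in SPF and 102, 120.4 and 129.6 in CGF. Each GF library had less than any other library, -1.64 ± 0.11 (SE, edgeR adjusted p = 1.72e-07), while genes of 10 to 30 kb had a median of -0.03. The fall was -1.47 in PFC interneurons, -1.39 in astrocytes, -1.28 in oligodendrocytes and -1.30 in OPCs, where the GF and SPF ranges overlapped. The length class had medians of -0.08 to 0.02 in these 4 types. In Hip it fell in oligodendrocytes alone (-0.91 ± 0.21 SE, edgeR adjusted p = 0.00389, length class 0.17).

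**Figure D4:**
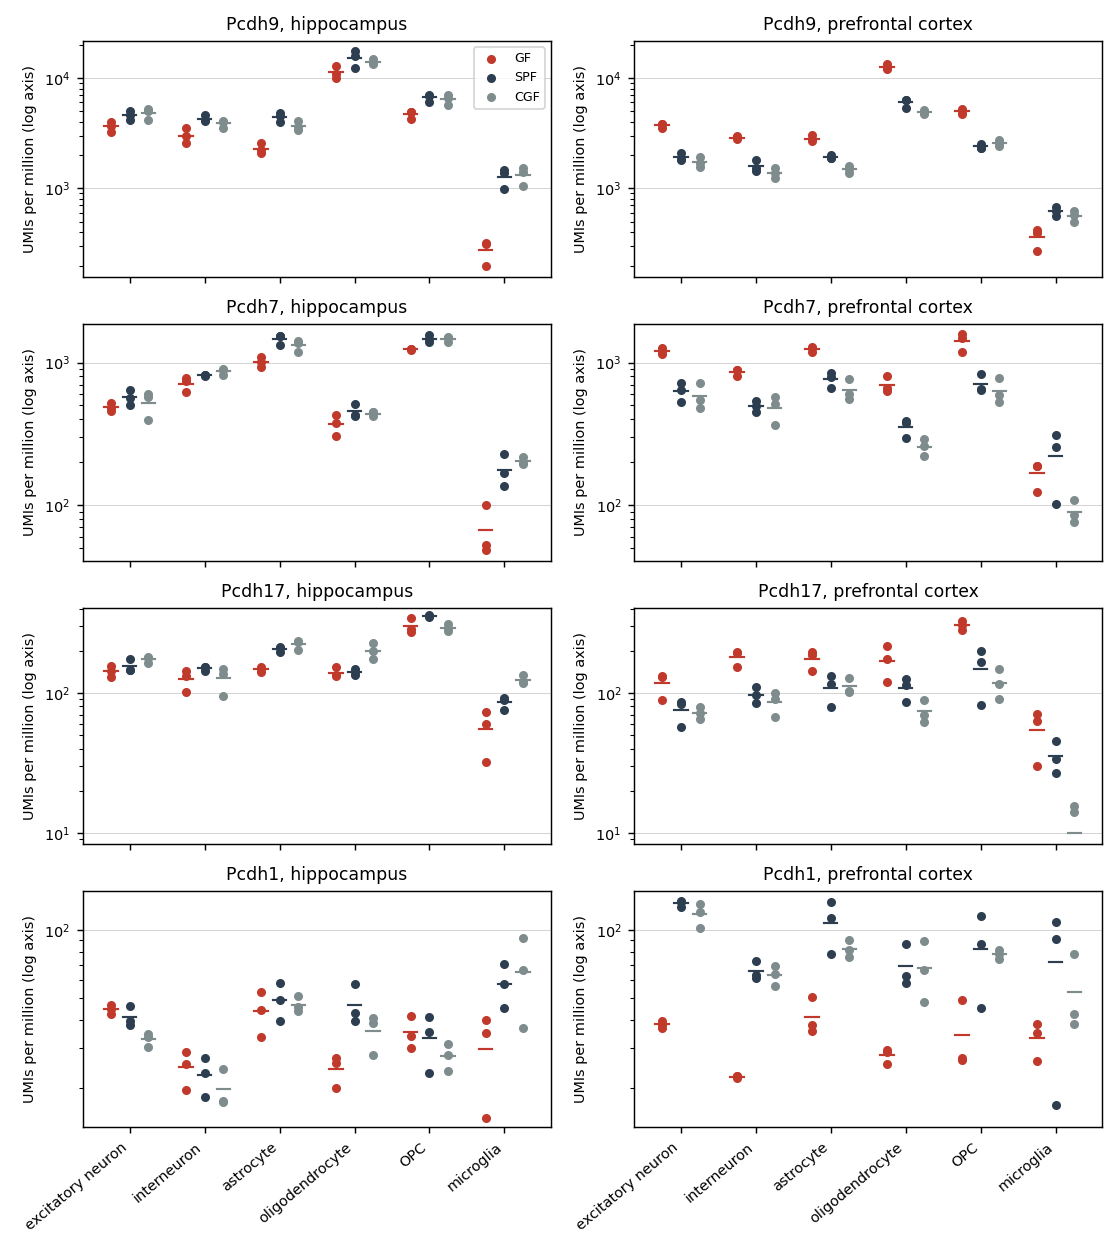
CPM of Pcdh9, Pcdh7, Pcdh17 and Pcdh1 in each library (points) by cell type and group (colors) in Hip and PFC, on a log axis, with a bar at the mean of the 3 libraries. In PFC the GF points of Pcdh9, Pcdh7 and Pcdh17 lie above the SPF and CGF points in excitatory neurons and astrocytes and those of Pcdh1 lie below. A CGF PFC microglia library with 0 for Pcdh17 is not drawn.

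Of the delta-2 genes, Pcdh17 (chr14:84443563-84539002) rose in GF in the same 5 PFC types, by 0.66 to 1.03. In PFC OPCs it stood at 279.7, 304 and 328 CPM in GF, 82.6, 166 and 198 in SPF and 90.2, 116 and 148 in CGF (1.03 ± 0.23 SE, edgeR adjusted p = 0.00104). In PFC interneurons the values were 153, 192 and 195 CPM in GF, 85.0, 96.4 and 109 in SPF and 67.5, 90.8 and 99.99 in CGF (0.97 ± 0.14 SE, edgeR adjusted p = 2.78e-05). GF lay above SPF without overlap in 4 of the 5 types, with oligodendrocytes the exception, and genes of 30 to 100 kb had medians between -0.03 and 0.04 there. In Hip it fell in astrocytes (-0.46 ± 0.11 SE, edgeR adjusted p = 0.00483, length class -0.18) and interneurons (-0.39 ± 0.14 SE, edgeR adjusted p = 0.0471, length class -0.14).

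Pcdh19 fell in GF Hip in all 6 types, with log2 differences of -0.29 to -1.27, beside medians of -0.33 to -0.24 for genes of 100 to 300 kb. In Hip oligodendrocytes it stood at 32.8, 38.8 and 39.2 CPM in GF, 82.7, 87.4 and 108 in SPF and 71.6, 81.4 and 115 in CGF (-1.27 ± 0.19 SE, edgeR adjusted p = 0.000151). In Hip excitatory neurons it stood at 88.9, 97.3 and 98.6 CPM in GF, 117, 122 and 136 in SPF and 107, 114 and 147 in CGF (-0.55 ± 0.11 SE, edgeR adjusted p = 0.00339). GF lay below SPF in 5 of the 6 types, with overlap in interneurons. In PFC it rose in interneurons (0.55 ± 0.13 SE, edgeR adjusted p = 0.00205, length class -0.01), and no other test of it passed there.

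Pcdh8 gave the 2 rises of Hip. In Hip excitatory neurons it stood at 25.1, 26.2 and 26.5 CPM in GF, 9.83, 10.9 and 15.2 in SPF and 7.85, 9.10 and 14.0 in CGF (0.96 ± 0.20 SE, edgeR adjusted p = 0.00399). In Hip interneurons the values were 21.4, 24.6 and 37.7 CPM in GF, 13.2, 14.0 and 16.1 in SPF and 9.26, 9.55 and 11.9 in CGF (0.83 ± 0.21 SE, edgeR adjusted p = 0.00718). All GF values were above all others in both types. At 4.54 kb Pcdh8 is a short gene, and genes of up to 10 kb had medians of 0.58 and 0.72 in these types. Pcdh10 (chr3:45378398-45435623) passed in 1 test, Hip oligodendrocytes (-0.55 ± 0.15 SE, edgeR adjusted p = 0.00855, length class -0.15). Pcdh18 passed in excitatory neurons of both regions (-1.25 in Hip and -1.46 in PFC, length class 0.14 and -0.03), at levels of at most 1.54 CPM in any library.

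**Figure D5:**
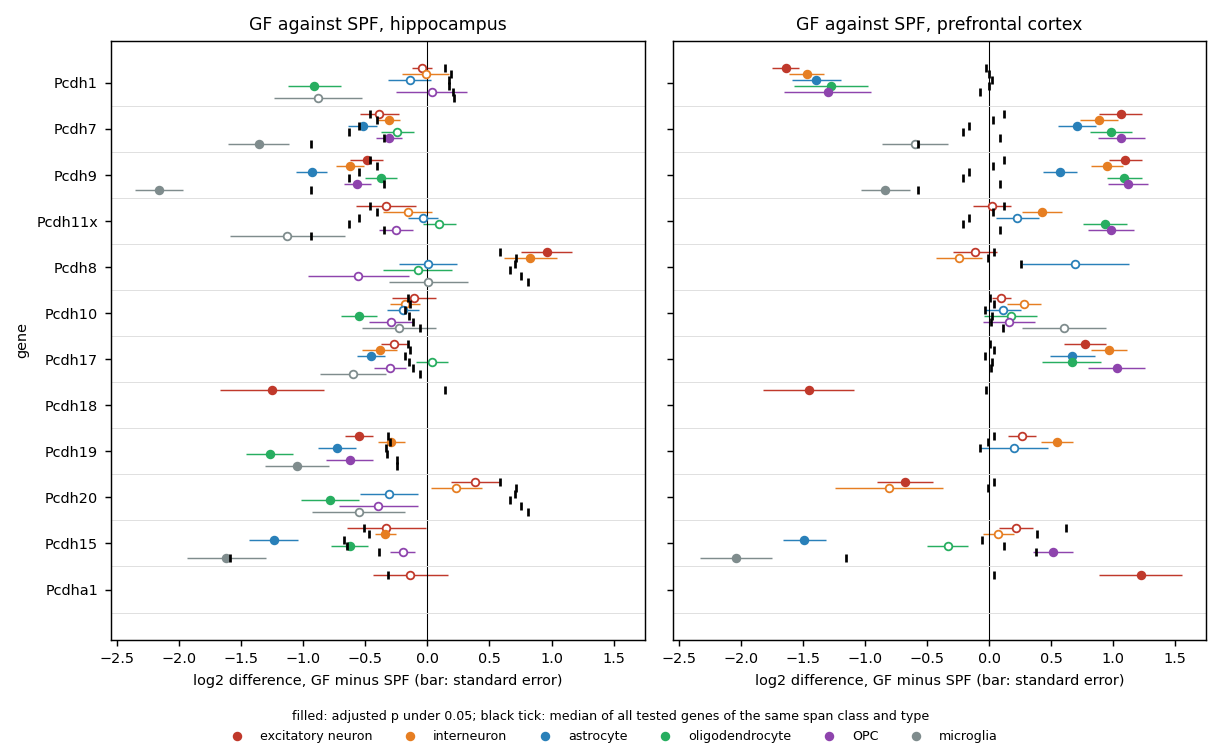
Log2 difference between GF and SPF (x axis) for each member (rows) and cell type (colors) in Hip and PFC, with bars of 1 standard error, filled points for an adjusted p under 0.05 and black ticks at the median of all tested genes of the same length class and type. Pcdh9 and Pcdh19 lie below 0 in every Hip type, and Pcdh9, Pcdh7 and Pcdh17 lie above 0 in the 5 PFC types other than microglia.

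Outside the delta genes, Pcdh15 had its largest falls in astrocytes and microglia. In PFC astrocytes it stood at 67.3, 86.0 and 115 CPM in GF, 229, 239 and 288 in SPF and 205, 232 and 233 in CGF (-1.49 ± 0.17 SE, edgeR adjusted p = 2.67e-07, median of genes over 1000 kb -0.05). The fall was -1.24 in Hip astrocytes, -1.62 in Hip microglia and -2.04 in PFC microglia, each without overlap with either group. There the median of genes over 1000 kb was -0.67, -1.59 and -1.16. OPC markers moved with it: the 8 of the list, none at 0, summed to 70.7 to 92.9 CPM in GF and 136 to 152 in SPF astrocytes of PFC, and to 61.2 to 93.8 and 112 to 139 CPM in those of Hip. In microglia they summed to 37.2 to 55.1 CPM in GF and 77.9 to 127 in SPF of Hip, with Cspg4 at 0 in GF, while in PFC the ranges overlapped, at 42.5 to 59.6 and 33.8 to 109 CPM, with Cspg4 at 0 in SPF. Their part in the fall was not tested. In PFC OPCs Pcdh15 rose, from 2283, 2571 and 2780.3 CPM in SPF to 3344, 3428 and 3749.9 in GF (0.52 ± 0.16 SE, edgeR adjusted p = 0.0142, length class 0.38), and in Hip OPCs it did not pass (-0.20 ± 0.10 SE, edgeR adjusted p = 0.182, length class -0.39). It fell too in Hip oligodendrocytes (-0.63) and Hip interneurons (-0.34), with length class medians of -0.65 and -0.47. Pcdh20 fell in Hip oligodendrocytes (-0.79 ± 0.23 SE, edgeR adjusted p = 0.0163, length class 0.67) and PFC excitatory neurons (-0.68 ± 0.22 SE, edgeR adjusted p = 0.0191, length class 0.04). Pcdha1 passed in PFC excitatory neurons (1.22 ± 0.33 SE, edgeR adjusted p = 0.00702, length class 0.04) at levels of at most 1.21 CPM, and Pcdh12 had too few UMIs to test.

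Some of these calls between GF and SPF were lost when 1 mouse was left out, with the log2 difference in parentheses. Pcdh9 in Hip oligodendrocytes was lost without CGF mouse 17, GF mouse 6, GF mouse 7, SPF mouse 30 or SPF mouse 31 (-0.26 to -0.37). Pcdh7 in Hip OPCs was lost without GF mouse 5, GF mouse 6, GF mouse 7, SPF mouse 30 or SPF mouse 31 (-0.27 to -0.34). Pcdh19 was lost in Hip interneurons without CGF mouse 17, CGF mouse 18, GF mouse 6, GF mouse 7, SPF mouse 30, SPF mouse 31 or SPF mouse 32 (-0.16 to -0.34) and in Hip OPCs without GF mouse 5, GF mouse 7, SPF mouse 30 or SPF mouse 31 (-0.58 to -0.63). Pcdh17 was lost in Hip interneurons without GF mouse 5, GF mouse 6, SPF mouse 30, SPF mouse 31 or SPF mouse 32 (-0.26 to -0.42) and in PFC oligodendrocytes without GF mouse 7, SPF mouse 30 or SPF mouse 31 (0.49 to 0.68). Pcdh11x in PFC interneurons was lost without GF mouse 6, GF mouse 7, SPF mouse 30 or SPF mouse 32 (0.27 to 0.46), Pcdh1 in PFC OPCs without SPF mouse 32 (-0.87) and Pcdh15 in PFC OPCs without GF mouse 7 or SPF mouse 31 (0.44 to 0.48). Pcdh20 was lost in Hip oligodendrocytes without GF mouse 6 or SPF mouse 32 (-0.61 to -0.67) and in PFC excitatory neurons without GF mouse 5, GF mouse 7 or SPF mouse 31 (-0.46 to -0.65), and Pcdh18 in Hip excitatory neurons without GF mouse 5, GF mouse 7, SPF mouse 30 or SPF mouse 32 (-0.97 to -1.31). No other GF against SPF call of a member was lost that way. DESeq2 did not call Pcdh7 in Hip OPCs, Pcdh17 in PFC oligodendrocytes, Pcdh18 in Hip excitatory neurons, or Pcdh19 in Hip interneurons and OPCs.

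Pcdh7, Pcdh9, Pcdh17, Pcdh19 and Pcdh1 changed in 1 direction in at least 5 of the 6 cell types of a region. The sums of these types come from the same libraries, and the part of neuronal RNA in the glial sums was not tested. Since the calls recurred across types, the 250 bases before the RefSeq starts (GRCm38.p6) of the first 4 genes are shown. The window of Pcdh1 was not used here. Capitals mark the GC box GGGCGG, bound by Sp factors, or ACAANG, a core of SOX sites, on either strand; the motifs do not overlap here. The windows lie at chr5:57717831-57718080 (plus strand), chr14:93890680-93890929 (minus strand), chr14:84443313-84443562 (plus) and chrX:133688994-133689243 (minus).
Pcdh7: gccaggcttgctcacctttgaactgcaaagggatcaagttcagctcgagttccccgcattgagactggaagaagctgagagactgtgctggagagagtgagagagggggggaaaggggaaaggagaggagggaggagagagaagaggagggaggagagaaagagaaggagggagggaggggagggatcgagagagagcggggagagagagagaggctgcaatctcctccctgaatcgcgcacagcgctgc
Pcdh9: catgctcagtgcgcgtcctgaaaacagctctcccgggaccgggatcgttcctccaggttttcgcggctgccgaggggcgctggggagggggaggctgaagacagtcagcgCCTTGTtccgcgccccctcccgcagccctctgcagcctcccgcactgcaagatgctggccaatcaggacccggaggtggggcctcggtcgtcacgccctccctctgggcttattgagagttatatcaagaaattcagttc
Pcdh17: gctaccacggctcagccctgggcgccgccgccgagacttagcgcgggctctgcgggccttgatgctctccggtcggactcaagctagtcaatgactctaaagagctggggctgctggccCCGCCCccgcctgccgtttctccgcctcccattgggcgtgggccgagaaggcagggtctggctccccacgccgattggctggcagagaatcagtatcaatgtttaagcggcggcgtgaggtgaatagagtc
Pcdh19: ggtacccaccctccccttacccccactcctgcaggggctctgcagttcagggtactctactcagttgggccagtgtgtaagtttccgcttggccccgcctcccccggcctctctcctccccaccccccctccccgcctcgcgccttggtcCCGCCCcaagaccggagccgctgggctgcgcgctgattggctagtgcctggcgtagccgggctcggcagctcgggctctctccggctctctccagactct
Pcdh9 held 1 match to ACAANG, and Pcdh17 and Pcdh19 held 1 match each to GGGCGG. The Pcdh7 window held no match to these motifs. Among 32841 such windows of the genome, 36.3% held ACAANG and 32.7% held GGGCGG. The E-box CAGCTG, found in 13% of windows, was in none of the 9 member windows used. Of the 13 members with UMIs, only these 9 had their windows used. Those of the others, Pcdh1 among them, were left out here, so nothing is said about their motifs.

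Between CGF and SPF mice, no protocadherin passed: edgeR called 0 of 62 tests in Hip and 0 of 49 in PFC, against 0.254% and 0.203% of all tests. At an unadjusted p under 0.05 there were 6 and 4, against 10.4% and 10.3% of all tests. DESeq2 called 1 and 0, against 1.12% and 0.872%. The 1 call was Pcdh1 in Hip excitatory neurons, which stood at 30.3, 33.7 and 34.8 CPM in CGF and 38.1, 39.4 and 46.3 in SPF (-0.28 ± 0.08 SE, edgeR adjusted p = 0.148). The next lowest adjusted p was that of Pcdh17 in Hip oligodendrocytes, higher in CGF by 0.52 ± 0.13 (SE, edgeR adjusted p = 0.164). Pcdh9 differed by -0.08 ± 0.13 (SE, edgeR adjusted p = 0.911) in Hip oligodendrocytes and by -0.17 ± 0.13 (SE, edgeR adjusted p = 0.607) in PFC excitatory neurons. A p that misses the threshold does not show that the 2 groups are alike. Within dentate granule neurons, a division chosen after seeing the data, Pcdh1 did pass and was lower in CGF, with -0.41 ± 0.09 (SE, edgeR adjusted p = 0.0444). This call was picked from 31 member tests in excitatory subtypes of Hip. The share of all genes called there between CGF and SPF is not given here, and the subtype fits of the groups were not repeated without a mouse. It is therefore not read as an effect of colonization.

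Against CGF mice, GF mice showed 31 calls of 62 in Hip, 3 higher and 28 lower, where the background was 20.1% and 16.7%. In PFC there were 31 of 49, 23 higher and 8 lower, with 25% and 24.2%. The GF libraries are shared with the comparison to SPF, so the 2 sets of calls are not independent. Pcdh9 in PFC oligodendrocytes exceeded CGF by 1.35 ± 0.14 (SE, edgeR adjusted p = 1.15e-08) and Pcdh1 in PFC excitatory neurons differed from it by -1.46 ± 0.11 (SE, edgeR adjusted p = 4.51e-07).

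Excitatory neurons are many subtypes, so the group difference was also fitted within them, a step chosen after seeing the data. In PFC, Pcdh9 was higher in GF in upper layer, mid layer, layer 5 and layer 6 corticothalamic neurons, by 1.04 to 1.29, as were Pcdh7, by 0.98 to 1.33, and Pcdh17, by 0.65 to 0.93. Pcdh1 was lower, with log2 differences of -1.35 to -1.66. Each of these genes passed in all 4 subtypes. The length class medians there were 0.06 to 0.22 for Pcdh9 and Pcdh7, 0.00 to 0.07 for Pcdh17 and -0.08 to 0.00 for Pcdh1. In all, 13 of 38 tests of a member in a PFC subtype were higher and 5 lower in GF, against 27.7% and 26.6% of all tests, and 4 of 31 were higher and 8 lower in Hip, against 24% and 20.6%. In Hip, Pcdh8 rose in dentate granule neurons, from 15.6, 16.5 and 19.97 CPM in SPF to 45.3, 50.1 and 54.3 in GF (1.41 ± 0.13 SE, edgeR adjusted p = 2.54e-05), and in CA3 neurons (0.79 ± 0.25 SE, edgeR adjusted p = 0.0201), while CA1 neurons did not pass (0.51 ± 0.23 SE, edgeR adjusted p = 0.103). Pcdh9 fell in CA1 (-0.50 ± 0.15 SE, edgeR adjusted p = 0.0244, length class -0.45) and CA3 (-0.65 ± 0.11 SE, edgeR adjusted p = 0.000594, length class -0.51) but did not pass in dentate granule neurons (-0.29 ± 0.14 SE, edgeR adjusted p = 0.0982). Pcdh20, which did not pass in Hip excitatory neurons as a whole (0.38 ± 0.19 SE, edgeR adjusted p = 0.133), rose in dentate granule neurons, its enriched subtype, from 29.9, 34.5 and 35.7 CPM in SPF to 49.2, 57.7 and 63.4 in GF (0.65 ± 0.13 SE, edgeR adjusted p = 0.00238). It rose in CA3 neurons too (0.66 ± 0.18 SE, edgeR adjusted p = 0.00929), with GF above SPF in every library of both subtypes, and fell in upper layer neurons of PFC (-0.90 ± 0.25 SE, edgeR adjusted p = 0.00717). The median of genes of up to 10 kb, the class of Pcdh8 and Pcdh20, was 0.63 in dentate granule, 0.62 in CA1 and 0.70 in CA3 neurons. Whether these subtypes differ from each other in the group difference was not tested.

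Hip and PFC were compared within each group. Of 63 tests, 21 passed in GF (8 higher and 13 lower in Hip, background 5.78% and 5.6%), 43 in SPF (30 and 13, background 22.1% and 20.6%) and 48 in CGF (35 and 13, background 22.5% and 21.9%). Some members held 1 direction in all groups. In excitatory neurons Pcdh19 ranged from 88.9 to 147 CPM in the 9 Hip libraries and from 26.2 to 35.1 CPM in the 9 PFC libraries, with log2 differences of 1.36 in GF, 2.23 in SPF and 2.40 in CGF. Pcdh20 was higher in Hip excitatory neurons by 2.71, 1.70 and 2.00, also without overlap. Pcdh10 was higher in PFC, from 38.8 to 63.9 CPM in Hip and from 143 to 172 CPM in PFC, and Pcdh11x was lower in Hip too, with -1.05, -0.64 and -0.61. All of these passed in edgeR in each group, with adjusted p of at most 0.0193. The regions were separate libraries, and depth differed between them in SPF and CGF but less so in GF.

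Pcdh9 and Pcdh1 passed between the regions in excitatory neurons of SPF and CGF mice and not of GF mice. Pcdh9 in excitatory neurons had Hip minus PFC differences of 1.49 ± 0.13 (SE, edgeR adjusted p = 3.29e-08) in SPF and 1.75 ± 0.14 (SE, edgeR adjusted p = 4.47e-09) in CGF, but -0.16 ± 0.13 (SE, edgeR adjusted p = 0.391) in GF. Pcdh1 in excitatory neurons had -1.45 ± 0.09 (SE, edgeR adjusted p = 5.6e-10) in SPF, -1.56 ± 0.10 (SE, edgeR adjusted p = 2.22e-10) in CGF and 0.09 ± 0.09 (SE, edgeR adjusted p = 0.492) in GF. The difference of the GF minus SPF effect between the regions was tested directly as an interaction, and 32 of 63 tests passed, 8 above 0 and 24 below, against 13.9% and 15.8% of all tests. All 32 also passed with the mouse as a block. Pcdh9 passed in all 6 types and Pcdh7 in 5, all below 0, which means a lower value of GF against SPF in Hip than in PFC. Pcdh1 passed in 4 types, all above 0. For Pcdh9 in excitatory neurons the interaction was -1.65 ± 0.19 (SE, edgeR adjusted p = 1.43e-06) (median of all genes -0.12), where the median of genes of 300 to 1000 kb was -0.64, and for Pcdh1 it was 1.54 ± 0.13 (SE, edgeR adjusted p = 5.69e-08), where that of genes of 10 to 30 kb was 0.04.

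Genes that act with protocadherins were counted in the same fits, GF against SPF over the 6 types, beside the backgrounds of higher and lower tests given above, and the median of genes of the same length class is given with each named gene. Of the regulators of clustered promoter choice, which include the loop factor Ctcf and the cohesin subunits, 0 of 85 tests were higher and 17 lower in Hip, and 9 were higher and 26 lower of 80 in PFC. Of these 9, 4 were in excitatory neurons, 4 in interneurons and 1 in astrocytes, where 7, 4 and 7 were lower. The list was thus mixed in PFC neurons. Smc1a and Smc3, the paired arms of the cohesin ring, fell in all 6 PFC types, with log2 differences of -1.42 to -2.34 and of -0.53 to -1.31, and Ctcf fell in 4 of them (-0.46 to -1.22), where the class of all 3 had medians of -0.03 to 0.11. Smchd1, which acts on silenced clusters, fell in 5 Hip types (-0.39 to -0.58, length class -0.33 to -0.25). Of the cytosolic and membrane partners, 10 of 108 tests were higher and 44 lower in Hip, and 24 were higher and 19 lower of 101 in PFC. The WAVE complex subunits Nckap1 (-0.29 to -1.17) and Cyfip1 (-0.61 to -0.91) each fell in 5 Hip types (length class -0.18 to -0.06), Ppp1ca, a phosphatase bound by delta-1 tails, rose in 5 Hip types (0.79 to 1.04, length class 0.58 to 0.81), and the small WAVE subunit Brk1 rose in all 6 PFC types (0.36 to 1.55, length class -0.08 to 0.13). Of the atypical cadherins, 3 of 56 tests were higher and 20 lower in Hip, and 1 was higher and 32 lower of 51 in PFC. Clstn3, a synaptic calsyntenin, fell in all 6 PFC types (-0.82 to -1.14, length class -0.03 to 0.11), Fat1, a giant cadherin, in 5 (-0.76 to -0.94, length class -0.07 to 0.04) and Celsr2, a planar polarity receptor, in 4 (-0.78 to -1.68, length class -0.03 to 0.02).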

How the data were processed

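Per the labels, nuclei of frozen Hip and PFC of the same 9 mice were sequenced on a droplet platform. The deposited counts are whole UMIs per gene and barcode, made by the authors against mm10 with an Ensembl annotation earlier than the GENCODE release used here. The matrix headers and the study's methods name Cell Ranger 3.1.0, the submitters' processing notes name CASAVA 1.8, and the series' design text names an older Cell Ranger and kit. The strand setting is not given in the sources used here.

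Nuclei with at least 200 genes and at most 10% mitochondrial UMIs were kept, and were gated by scores of marker genes. A glial, vascular or other non-neuronal call needed a score of 2 times the next non-neuronal type. Against the higher neuronal score it needed only 0.5 times that score, so nuclei with neuronal RNA could be called glia. A neuronal call needed 2 times the other neuronal score and 2 times any non-neuronal score. Nxph1 was left out of the interneuron gate after its values were seen. No doublet caller was run. The gate left 5538 Hip and 7566 PFC nuclei without a type. UMIs were summed per library and type, sums of under 20 nuclei were dropped, and all genes were fitted with edgeR 4.0.16 (filterByExpr, TMM, quasi-likelihood test, Benjamini-Hochberg over all genes tested) in R 4.3.3. DESeq2 1.42.0, no filter, a stricter gate, thinned sums, 2 groups alone, each mouse left out, a replicate block, totals without TMM factors and the subtype fits without thinly filled subtypes were alternatives. Cell type and subtype fits had the library as a block. A log2 difference is given with its standard error. Same-numbered Hip and PFC libraries come from 1 mouse, and the correlations of their deviations from the group means ran from -0.03 to 0.46 (median 0.12). The scripts were tested on simulated data. Gene bodies were taken from GENCODE release 21, in which 30766 genes (99.55%) matched by Ensembl ID. All non-clustered members are named, and of the clustered ones none met the naming rule (calls in at least 2 tests between GF and SPF, or enrichment in both regions), so Pcdha1 was named after its values were seen. The members and lists were chosen with earlier results of these data known. Each group holds 3 mice, and in the group fits a p-value sets a difference against the spread between mice of a group. In the cell type and subtype fits the block takes out what the sums of a library share. The main region fit took the Hip and PFC libraries of a mouse as separate.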

Additional observations from a re-analysis of the deposited data

Results flagged for a closer look

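The difference of the GF minus SPF effect between Hip and PFC, on the log2 scale, was the reason to look at 32 member results again, each past an adjusted p of 0.05 for that interaction in edgeR's quasi-likelihood test (highest adjusted p 0.0484, and 0.0468 with the mouse as a block). A value below 0 means that GF against SPF was lower in Hip than in PFC. Among delta-1 genes, the value was -1.65 in excitatory neurons, -1.56 in interneurons, -1.46 in astrocytes, -1.46 in oligodendrocytes, -1.64 in OPCs and -1.34 in microglia for Pcdh9. It was -1.51 in excitatory neurons, -1.19 in interneurons, -1.19 in astrocytes, -1.22 in oligodendrocytes and -1.33 in OPCs for Pcdh7. For Pcdh11x it was -0.83 in oligodendrocytes and -1.20 in OPCs. Pcdh1 had the opposite sign, with 1.54 in excitatory neurons, 1.46 in interneurons, 1.29 in astrocytes and 1.38 in OPCs. Among delta-2 genes, Pcdh17 had -1.10 in excitatory neurons, -1.34 in interneurons, -1.09 in astrocytes and -1.28 in OPCs, and Pcdh19 had -0.87 in excitatory neurons, -0.83 in interneurons and -0.89 in astrocytes. Pcdh10 had -0.72 in oligodendrocytes. Pcdh8 lay above 0, with 1.02 in excitatory neurons and 1.08 in interneurons, and so did Pcdh18, with 2.68 in interneurons. Pcdh18 had 7, 9 and 11 UMIs in the GF and 0, 3 and 5 in the SPF interneuron sums of Hip. In PFC it had 12, 20 and 21 UMIs in GF sums of 3686497 to 4648321 UMIs. The SPF sums of PFC held 7, 8 and 14 of them in only 999925 to 1255239 UMIs. By CPM, GF therefore lay below SPF in PFC. Pcdh15 had -0.40 in interneurons and -0.68 in OPCs, Pcdh20 had 1.01 in excitatory neurons and Pcdha1 had -1.42 in excitatory neurons. Without 1 mouse, 6 of these calls were lost: Pcdh1 in OPCs without GF 5, GF 7, SPF 30 or SPF 32 (1.06 to 1.32), Pcdh10 in oligodendrocytes without CGF 18, GF 5, GF 7, SPF 30, SPF 31 or SPF 32 (-0.67 to -0.81), Pcdh15 in OPCs without GF 7 or SPF 31 (-0.54 to -0.65), Pcdh15 in interneurons without GF 5, GF 7 or SPF 30 (-0.30 to -0.46), Pcdh19 in astrocytes without GF 5 or SPF 31 (-0.70 to -0.78), and Pcdha1 in excitatory neurons without GF 5 or SPF 31 (-1.27 to -1.33). Median UMIs per nucleus were 4678 to 5905 in GF and 6172 to 7087 in SPF libraries of Hip. In PFC they were 6796 to 7426 in GF and 3037 to 3208 in SPF libraries. With sums thinned to the lowest depth, 16 member calls between groups or regions, the interaction included, were lost and 6 gained. Thinning leaves the expected share of each gene in its sum as it was. It can therefore show calls lost with fewer counts, but not whether a difference came with depth. The counts of lost and gained calls were not split for the 32 results, and the part of depth in these results was not tested.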

How the results depend on the processing

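The 760 member results, which leave out CGF against SPF, had 8954 values under other settings. Of these, 8539 kept their side of the threshold, 279 lost the call and 134 gained one. Direction was compared only where a call was made in at least 1 of the 2 settings, and there 2 values turned their sign. One was Pcdh8 in layer 6 corticothalamic neurons of PFC, whose log2 difference from the other subtypes was -1.05 and became 0.36 with the stricter subtype gate, and the cause was not tested. The other was Pcdh20 in the same neurons, at 0.21 and, without layer 6b in the mean of the others, -1.33. DESeq2 called 1 protocadherin between CGF and SPF in Hip, against 0. With a log2 difference of at least 2 in place of 1, 3 enrichments were left in Hip and 3 in PFC, since fewer genes can pass it. Leaving out 1 mouse at a time gave 23 to 32 calls between GF and SPF, 0 to 0 between CGF and SPF and 27 to 37 between GF and CGF in Hip. In PFC it gave 27 to 34, 0 to 0 and 28 to 31. Between the regions it gave 16 to 22 calls in GF, 33 to 46 in SPF, 38 to 48 in CGF and 28 to 33 for the interaction, and by cell type 8 to 10 enrichments in Hip and 6 to 8 in PFC. With the mouse as a replicate block, which pairs the Hip and PFC libraries of 1 animal, the calls between regions were 24 in GF, 47 in SPF and 51 in CGF, with 33 for the interaction, and the block ended no call. Without the library as a block, 9 enrichments in Hip and 8 in PFC were counted. Thinning the sums to the lowest depth gave 25 calls between GF and SPF in Hip and 32 in PFC. Library totals without TMM factors, added after seeing the data, gave 22 and 30. The main fit had 28 and 31, and the single calls that these settings ended are not listed here. The stricter subtype gate gave 15 enrichments in place of 18, where the 18 include 1 of Vip interneurons of Hip, seen in 1 library. Leaving out the subtypes that reached 20 nuclei in under 4 libraries, added after seeing the data, gave 14. Pcdh12, Pcdh18 and Pcdha1 had the fewest UMIs of the members with any, at 93, 950 and 677. The effect of depth was not compared between members.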
